A study of Mus musculus with 54 samples.

Results

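Nap1l5 and 9 further imprinted genes, Peg3, Peg10, Mest, Dlk1, Plagl1, Grb10, Cdkn1c, Ndn and Sgce, were followed across the 2 sides of the mouse ovarian follicle wall, with and without an ovulatory stimulus. These 10 genes were taken by symbol from the 25149 genes of the expression tables. Nap1l5 was included because of its large difference between the sides of unstimulated follicles, and the question put to the other 9 was whether they shared that difference. The values that led to its choice are therefore given as a description, without a test. For the 9 other genes that comparison is also a description, in which the calls of the fit are named but no FDR is given. Secondary follicles isolated from CD-1 mice aged 14 to 16 days were grown for 8 days in alginate hydrogel to the antral stage. They then spent 12 h in maturation medium with or without hCG, the gonadotropin that stands in for the luteinizing hormone surge. Per the study's methods both media contained EGF and recombinant FSH, and each follicle was cut into the side that ruptured, or was predicted to from its shape and an image model, and the side that did not. The 54 Smart-Seq2 libraries, each made from 1 follicle side, were 15 putative unruptured and 14 putative ruptured sides without hCG, and 12 unruptured and 13 ruptured sides post-hCG. The labels do not tie the sides to follicles or animals, so that p-values measure the spread between libraries, some of which may share a follicle or an animal.

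The library totals lay between 1497071 and 2834734 counts. The tissue is labelled as cumulus-oocyte complex, whereas the study's methods state that the complex was removed. The summed level of 12 oocyte markers had a median of 0.330 TPM (a level scaled by transcript length and library size) in putative unruptured libraries, 0.155 in putative ruptured ones, 0.150 in unruptured ones post-hCG and 0 in ruptured ones post-hCG. It reached 10 TPM or more in 4 of 15, 1 of 14, 0 of 12 and 0 of 13 libraries, with a highest value of 209 TPM in 1 putative unruptured library. Granulosa markers summed to between 1212 and 22194 TPM in every library. Most of that sum came from Inha, with mean levels of 1072 to 8784 TPM over the groups, and Gja1, with 142.6 to 3695 TPM. These markers do not separate wall from cumulus granulosa cells. Each sample description carries a position code with a letter. The media shared no letter, so letter and medium cannot be told apart, and within a medium the sides had only 1 letter in common (G without hCG, C post-hCG).

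Genomic imprinting silences the copy of a gene from a given parent through DNA methylation set in the germ line, so that the gene is transcribed mainly from the copy of the other parent. Many imprinted genes act on growth, on placental function and on the balance between proliferation and differentiation, and they lie in clusters under shared control elements. Of the 10 genes, Nap1l5, Peg3, Peg10, Mest, Dlk1, Plagl1, Ndn and Sgce are known as paternally expressed, and Cdkn1c and, in most tissues, Grb10 as maternally expressed. These counts sum over both alleles, so parental origin was not measured and the imprinting status is background here.

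Nap1l5 encodes a member of the nucleosome assembly protein family, histone chaperones that load and remove histones. In GENCODE it lies on the minus strand of GRCm38 at chr6:58905233-58907076, inside intron 22 of a 25-exon transcript of Herc3, a HECT-type ubiquitin ligase gene transcribed from the opposite strand (chr6:58831465-58920398), and it overlaps no annotated Herc3 exon. Fam13a follows on the minus strand with a gap of 25.0 kb (chr6:58932090-59024549). The library kit does not mark strand, so reads from unspliced Herc3 RNA and from Nap1l5 cannot be told apart. Peg10 (chr6:4747306-4760517, plus strand) and Sgce (chr6:4674350-4747207, minus strand) are divergent neighbours with a gap of 0.1 kb. Mest (chr6:30723547-30748465) overlaps the end of Copg2 on the other strand. The remaining genes lie apart, with Peg3 at chr7:6703892-6730431, Ndn at chr7:62346569-62350262, Cdkn1c at chr7:143458339-143461050, Plagl1 at chr10:13060504-13131694, Grb10 at chr11:11930508-12038683 and Dlk1 at chr12:109452823-109463336.

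RefSeq promoters of GRCm38.p6 were matched for 7 of the 10 genes. The 250 bases before the start are shown 5′ to 3′ for Nap1l5 (chr6:58907127-58907376, minus strand) and its neighbours Herc3 (chr6:58833450-58833699, plus strand) and Fam13a (chr6:59024503-59024752, minus strand), and for Ndn (chr7:62348027-62348276, plus strand). Nap1l5 and Fam13a were higher on the putative ruptured side. Herc3 was higher there by a smaller amount, a call that 5 of 11 alternatives lost. Ndn was lower on both ruptured sides. Capitals mark CG dinucleotides, the sites at which imprinting marks are laid.
Nap1l5: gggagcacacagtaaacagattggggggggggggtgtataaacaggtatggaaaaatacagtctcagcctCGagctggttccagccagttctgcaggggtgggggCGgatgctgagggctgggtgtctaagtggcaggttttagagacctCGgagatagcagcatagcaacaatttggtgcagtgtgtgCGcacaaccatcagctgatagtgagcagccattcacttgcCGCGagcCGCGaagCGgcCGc
Herc3: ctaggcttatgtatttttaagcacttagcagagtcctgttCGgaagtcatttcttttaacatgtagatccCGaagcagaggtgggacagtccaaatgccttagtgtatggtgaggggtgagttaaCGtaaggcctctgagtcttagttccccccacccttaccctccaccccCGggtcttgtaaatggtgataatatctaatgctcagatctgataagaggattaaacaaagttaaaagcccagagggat
Fam13a: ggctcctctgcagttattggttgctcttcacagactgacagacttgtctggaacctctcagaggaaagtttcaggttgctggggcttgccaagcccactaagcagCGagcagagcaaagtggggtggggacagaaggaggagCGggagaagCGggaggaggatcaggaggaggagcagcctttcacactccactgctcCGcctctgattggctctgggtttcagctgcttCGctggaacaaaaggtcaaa
Ndn: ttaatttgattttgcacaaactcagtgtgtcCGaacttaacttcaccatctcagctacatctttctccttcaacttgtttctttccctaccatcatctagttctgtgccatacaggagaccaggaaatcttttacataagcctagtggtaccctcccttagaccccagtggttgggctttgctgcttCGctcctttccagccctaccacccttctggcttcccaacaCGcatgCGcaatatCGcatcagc
The Nap1l5 window held 10 CG dinucleotides, a number that 37.8% of the 32851 promoters in the table reached or passed. The Fam13a window held 5 (55.6% of promoters had at least as many), that of Herc3 4 (62.2%) and that of Ndn 5 (55.6%), while the richest window among the members was the first of 2 listed for Grb10, with 40 (1.31%). The cAMP response element, TGACGTCA, was searched on both strands because hCG signals through cAMP, and was found in the window of Peg3 and in no other window of these 9 genes, against 1.55% of all promoters. Its core TGACG, which the full element contains, was also in the Dlk1 window and the second Grb10 window, against 17.8% of all promoters. AAGGTCA, the letters bound by steroidogenic factor 1, was in the Fam13a window and in 4.08% of all promoters. These are matches of letters in these windows and nothing more.

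Nap1l5 was higher on the ruptured side of the follicle wall in both media, and it was lower post-hCG on both sides. On the putative unruptured side its level ran from 1.48 to 48.4 TPM with a median of 5.69 in 15 libraries. On the putative ruptured side it ran from 37.9 to 629 TPM with a median of 249.7 in 14 libraries. Post-hCG it ran from 0.180 to 4.07 TPM with a median of 2.26 on the unruptured side (n = 12). On the ruptured side post-hCG it ran from 2.58 to 15.9 TPM with a median of 8.24 (n = 13). The order of the group means was therefore putative ruptured (250.2 ± 195.8 TPM, SD), putative unruptured (11.6 ± 14.0), ruptured post-hCG (8.64 ± 4.43) and unruptured post-hCG (2.31 ± 1.23). The middle pair in this order differ in both side and medium and were not tested against each other, and their ranges overlapped.

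Without hCG, all 14 putative ruptured libraries lay above the median of the putative unruptured ones, 11 of them above every putative unruptured library, and the ranges overlapped. The ratio of mean levels was 21.5, and the fitted log2 fold change (log2FC, ruptured over unruptured side) was 4.42 (SE 0.51), the 2nd highest of 9063 genes. This is the difference for which Nap1l5 was chosen, so no test is attached to it. It lay between 4.20 and 4.80 when each library was left out in turn. Among the libraries with the position letter G, 5 a side, it was 2.67 (SE 0.68), 1.75 lower than in all libraries. Without the 5 libraries with 10 TPM or more of oocyte markers it was 4.05 (SE 0.58).

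**Figure D1:**
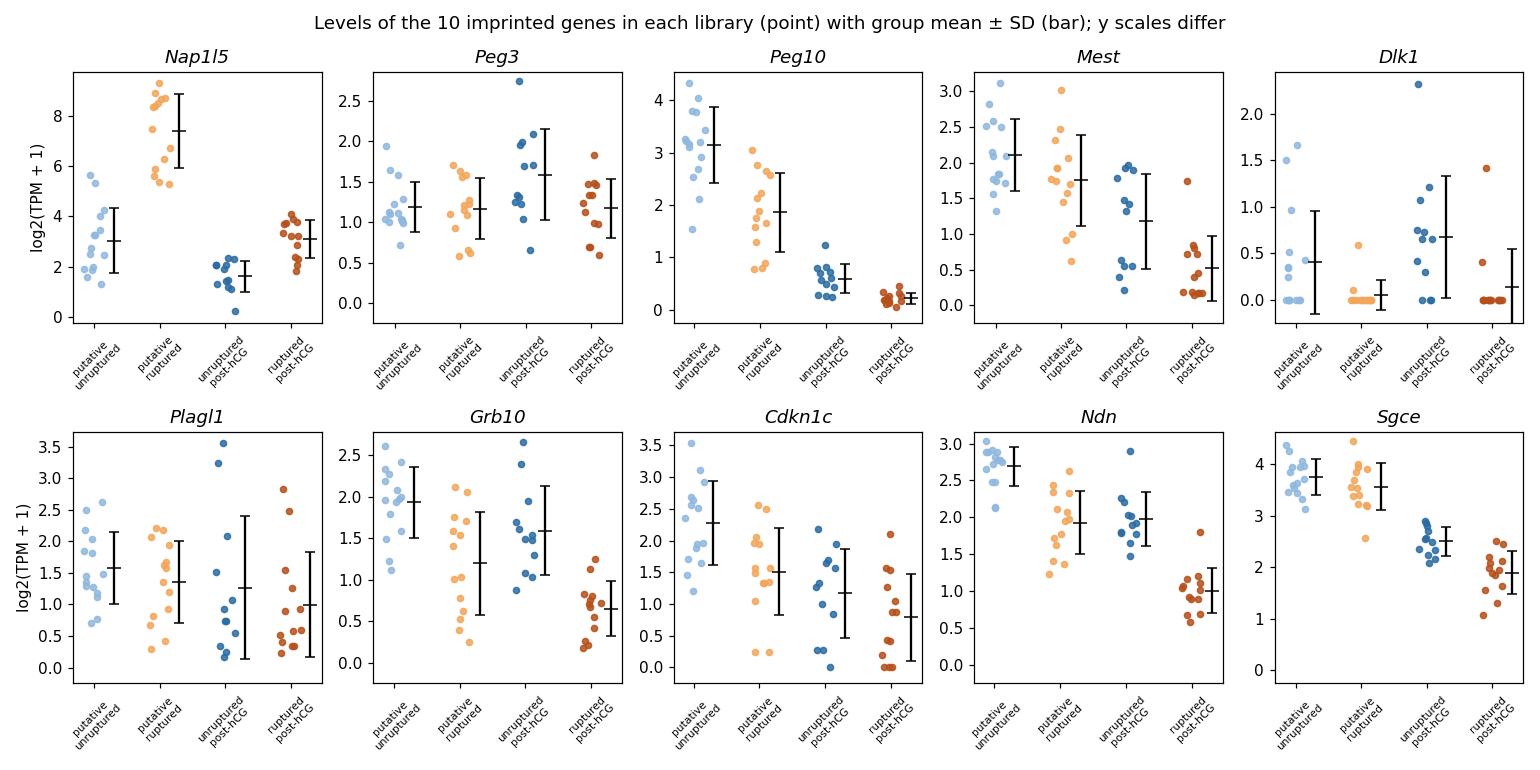
Level of each of the 10 imprinted genes as log2(TPM + 1) in the 54 libraries. Points are libraries, grouped by side and medium, black bars are the group mean ± SD, and the y scale differs between genes. Nap1l5 stands at 37.9 TPM or more in every putative ruptured library, Peg10 and Sgce drop in both post-hCG groups, and Ndn is lowest on the ruptured side post-hCG.

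Post-hCG, in libraries other than those of the difference above, Nap1l5 was higher on the ruptured side as well, although earlier results of both media were known when the genes were chosen. All 13 ruptured libraries lay above the median of the 12 unruptured ones, and 10 of them above every unruptured library. The log2FC was 1.76 (SE 0.26, edgeR quasi-likelihood test, Benjamini-Hochberg FDR = 8.9e-06), the 6th highest of 8585 genes. The counts behind it were low, between 1 and 15 per library on the unruptured side and between 11 and 52 on the ruptured side. The log2FC stayed between 1.48 and 1.92 over 12 other ways of fitting, with an FDR of at most 0.0139, and was 1.53 (SE 0.28, FDR = 0.0021) among the libraries with the letter C, 4 unruptured and 5 ruptured.

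Markers of the cell types of the wall moved with the sides too. Without hCG, 9 of 10 granulosa markers that passed the count filter were higher on the putative ruptured side, among them Cyp19a1 (aromatase, log2FC 3.22, SE 0.38, FDR = 1.05e-06) and Fshr (the FSH receptor, log2FC 2.12, SE 0.36, FDR = 8.1e-05). The summed level of the 12 granulosa markers ran from 1714 to 8064 TPM in putative unruptured libraries and from 6743 to 22194 TPM on the putative ruptured side. Amh, a defining granulosa marker of growing follicles, was barely detected. It had 6 counts in all in each of the unruptured groups and no count on either ruptured side. Of 7 theca and stroma markers that passed, 6 were lower on the putative ruptured side, and the sum of 13 such markers had a median of 502 TPM on the putative unruptured and 39.6 TPM on the putative ruptured side. Post-hCG, 4 of 7 granulosa markers were higher and none lower on the ruptured side, while their sum had a median of 1954 TPM on the unruptured and 1917 TPM on the ruptured side. The theca and stroma sum then had medians of 289.8 and 6.38 TPM, with 5 of 6 markers that passed lower on the ruptured side, and Cyp17a1 and Mfap5 had no count there. Of the sums of other marker lists without hCG, smooth muscle had medians of 35.0 and 5.63 TPM on the putative unruptured and ruptured sides, immune cells 33.4 and 3.02, endothelium 8.64 and 3.89, and surface epithelium 9.96 and 7.56 TPM. Post-hCG these were 5.11 and 2.49, 13.5 and 0.750, 10.5 and 5.21, and 4.86 and 3.17 TPM in the same order. The part of these cell types in the differences of Nap1l5 and the other imprinted genes was not tested, and in such pieces of tissue fewer cells of a type and less RNA per cell cannot be told apart.

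The other 9 imprinted genes were not called higher on the ruptured side in either medium. Without hCG, no member other than Nap1l5 had a level that was called higher on the putative ruptured side. The 3 called lower there were Peg10, Grb10 and Ndn, while Cdkn1c and Dlk1 were under the count filter. Of the 10 genes, 8 passed the count filter, and 4 of these, Nap1l5 included, passed an FDR of 0.05 against 17.8% of the 9063 genes tested. As this comparison led to the choice, nothing is read from that count. The median log2FC of the 7 tested members other than Nap1l5 was -0.43, against -0.01 over all tested genes.

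Post-hCG, 5 of the 10 genes passed the count filter, and the test called Nap1l5 higher and Grb10, Ndn and Sgce lower on the ruptured side. The background was 21.4% of 8585 genes called, 10% higher and 11.3% lower. Genes pass the filter by being well counted in at least 1 group, so this count is a description of these 5 and not of all members.

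**Figure D2:**
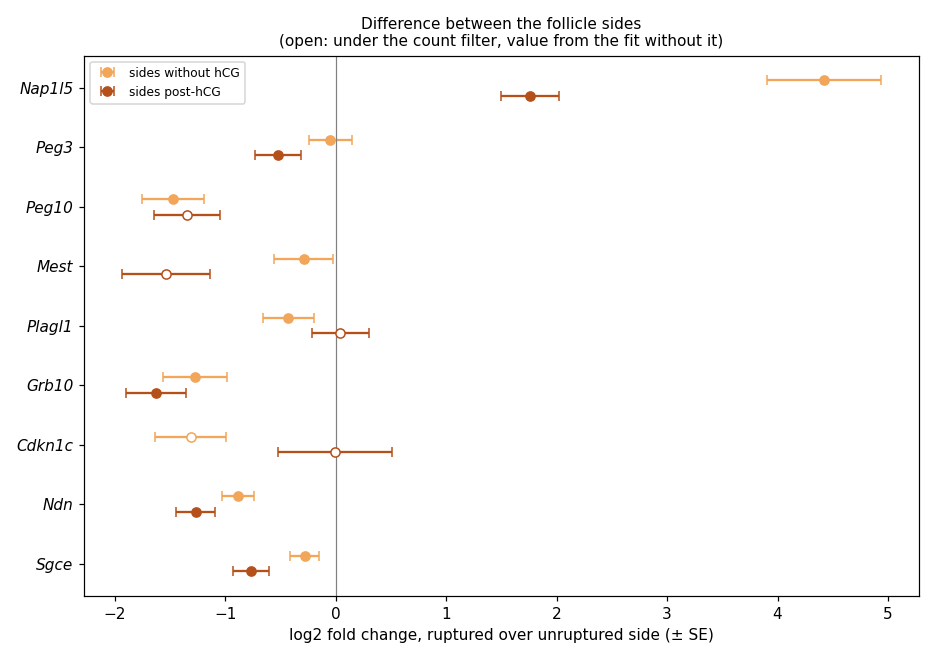
Log2 fold change between the follicle sides (x axis, ruptured over unruptured, bars ± SE) for 9 imprinted genes without hCG and post-hCG. Filled points come from genes that passed the count filter, open points from the fit without it, and Dlk1 is left out because it had 3 counts in all on each ruptured side. Nap1l5 lies at 4.42 and 1.76, to the right of every other gene. The other genes lie left of 0 in both media, except Plagl1, an open point at 0.04 post-hCG. Cdkn1c is an open point at -0.01 post-hCG.

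Peg3 and Plagl1 encode zinc finger transcription factors. The median of Peg3 was 1.15 TPM on the putative unruptured, 1.27 on the putative ruptured, 1.89 on the unruptured post-hCG and 1.36 on the ruptured post-hCG side. Between the sides its log2FC was -0.05 (SE 0.19) without hCG and -0.52 (SE 0.21, FDR = 0.070) post-hCG, with a 95% interval from -0.93 to -0.12. The post-hCG difference missed the threshold, but passed it with library totals as the only scaling (FDR = 0.0227). Plagl1 ran from 0.630 to 5.14 TPM on the putative unruptured and from 0.220 to 3.61 TPM on the putative ruptured side, and its log2FC was -0.43 (SE 0.23). Post-hCG it was under the filter, with medians of 0.785 and 0.510 TPM and 2 to 15 counts per library on the unruptured and 3 to 19 on the ruptured side.

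Grb10, Cdkn1c and Ndn encode restraints on growth: Grb10 is an adaptor that dampens insulin and IGF receptor signalling, Cdkn1c is the cyclin-dependent kinase inhibitor p57, and Ndn (necdin) is a MAGE family protein that restrains proliferation. The level of Ndn ran from 3.38 to 7.18 TPM on the putative unruptured and from 1.35 to 5.19 TPM on the putative ruptured side, with all 14 putative ruptured libraries below the putative unruptured median. Post-hCG it ran from 1.77 to 6.48 TPM on the unruptured and from 0.490 to 2.49 TPM on the ruptured side, and 12 of 13 ruptured libraries lay below every unruptured one. The log2FC was -0.88 (SE 0.15) without hCG and -1.27 (SE 0.18, FDR = 3.2e-06) post-hCG. Among libraries of 1 shared letter it was -0.79 (SE 0.21) without hCG and -0.87 (SE 0.26, FDR = 0.0463) post-hCG.

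Grb10 had a median of 2.94 TPM on the putative unruptured and 1.36 TPM on the putative ruptured side, with ranges of 1.17 to 5.14 and 0.190 to 3.33 TPM. Post-hCG the medians were 1.87 and 0.630 TPM, the ranges 0.840 to 5.31 and 0.130 to 1.38 TPM, and 11 of 13 ruptured libraries lay below every unruptured one. The log2FC was -1.28 (SE 0.29) without hCG and -1.63 (SE 0.27, FDR = 4.1e-05) post-hCG, and in the libraries with the letter C alone the latter was -1.18 (SE 0.38) and missed the threshold (FDR = 0.0654). Cdkn1c was under the filter in every comparison: its median was 4.12 TPM on the putative unruptured and 1.88 TPM on the putative ruptured side, and post-hCG 1.47 TPM on the unruptured and 0.830 on the ruptured side. No library held more than 30 counts of it. In the fit without a filter its log2FC between the sides was -1.31 (SE 0.32) without hCG and -0.01 (SE 0.52) post-hCG. With hCG it was -2.03 (SE 0.36, FDR = 1.7e-05) on the unruptured and -0.72 (SE 0.43, FDR = 0.205) on the ruptured side.

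Dlk1, a transmembrane protein with EGF repeats that acts in Notch signalling, was barely detected. It had 17 counts over the putative unruptured libraries, 3 over the putative ruptured, 23 over the unruptured post-hCG and 3 over the ruptured post-hCG ones, and was at 0 in 7 of 15, 12 of 14, 3 of 12 and 11 of 13 libraries. At these counts no fold change is given.

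Peg10 and Sgce share a bidirectional promoter region, and Mest lies farther along chromosome 6. Peg10 is a retrotransposon-derived gene needed for the placenta, Sgce encodes epsilon-sarcoglycan, a membrane protein, and Mest an enzyme of the alpha/beta hydrolase fold. Peg10 ran from 1.93 to 19.0 TPM on the putative unruptured and from 0.710 to 7.28 TPM on the putative ruptured side, with all 14 putative ruptured libraries below the putative unruptured median (log2FC -1.48, SE 0.28). Sgce, its divergent neighbour, had nearer medians of 12.2 and 10.7 TPM (log2FC -0.28, SE 0.13). Post-hCG Sgce was lower on the ruptured side (median 2.86 against 4.72 TPM, log2FC -0.77, SE 0.16, FDR = 0.00081), a call lost among the libraries with the letter C (-0.62, SE 0.26, FDR = 0.164), while Peg10 was under the filter, with 134 counts over the 12 unruptured and 53 over the 13 ruptured libraries. In the fit without a filter the log2FC of Peg10 was -1.35 (SE 0.30, FDR = 0.0014). Mest had medians of 3.25 and 2.39 TPM on the putative unruptured and ruptured sides (log2FC -0.29, SE 0.27), and 1.58 and 0.310 TPM post-hCG, where 99 and 33 counts were too few for the filter; without the filter its log2FC was -1.54 (SE 0.40, FDR = 0.0069). The reads of Mest and Copg2 in their overlap cannot be told apart without strand.

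Most of the members that could be tested were lower post-hCG on both sides. On the unruptured side 8 of the 10 genes passed the filter and all 8 passed an FDR of 0.05, 7 lower and Peg3 higher, against 53.1% of 9320 genes called (25.4% higher, 27.7% lower). On the ruptured side 5 passed the filter and 4 were called, all lower, against 60.1% of 8531 genes called (29.7% higher, 30.4% lower). Calls of this breadth are the rule in these 2 comparisons, and they share their libraries with the side comparisons and with the choice of Nap1l5, whose values here are again a description. Genes pass the filter by being well counted in at least 1 group, here often the one without hCG. The median count of Mest was 25 on the putative unruptured and 5 on the unruptured side post-hCG. That of Peg10 was 52.5 on the putative ruptured and 4 on the ruptured side post-hCG. The filter thus favours members that were lower post-hCG, and the counts describe only the members that passed.

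**Figure D3:**
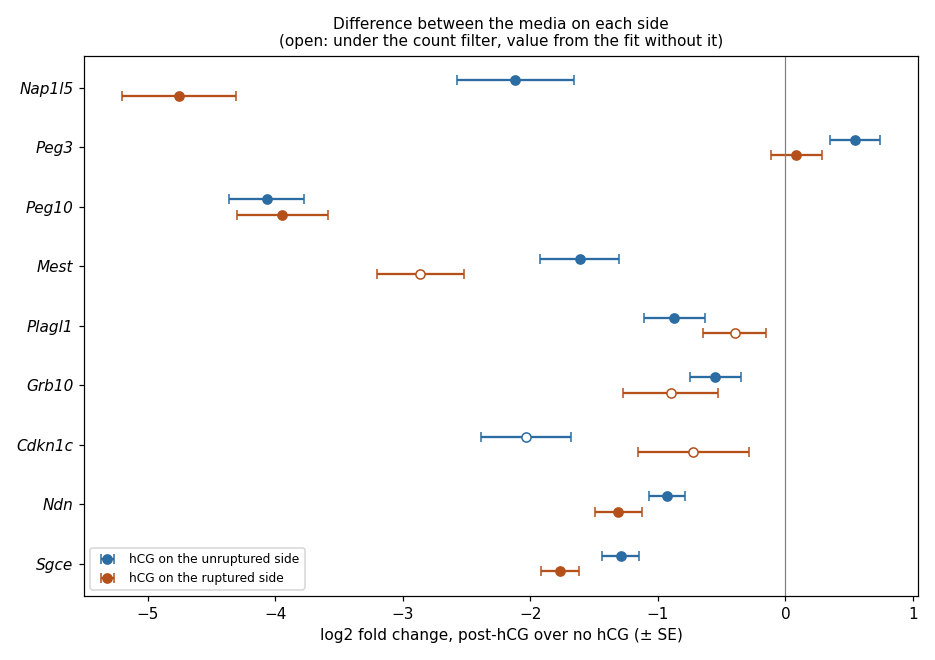
Log2 fold change between the media (x axis, post-hCG over no hCG, bars ± SE) for 9 imprinted genes on the unruptured and on the ruptured side. Filled points passed the count filter, open points come from the fit without it, and Dlk1 is left out. Peg10 lies near -4 on both sides, Nap1l5 at -2.12 and -4.75, and Peg3 is the only gene of the 9 to the right of 0, though with library totals as the scaling its value on the ruptured side was -0.23.

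Peg10 was lower post-hCG on both sides. Its median went from 8.17 to 0.505 TPM on the unruptured side and from 2.52 to 0.140 TPM on the ruptured side, and no post-hCG library reached the lowest library without hCG on the same side. Such separation was seen in 1.45% of tested genes on the unruptured and 4.34% on the ruptured side. The log2FC was -4.07 (SE 0.29, FDR = 2.6e-13) and -3.94 (SE 0.35, FDR = 2.1e-11). Sgce separated in the same way on both sides, with medians of 12.2 and 4.72 TPM on the unruptured and 10.7 and 2.86 TPM on the ruptured side, and fell by 1.29 (SE 0.14, FDR = 5.6e-09) and 1.77 (SE 0.15, FDR = 7.2e-12) on the log2 scale. Both neighbours were thus lower post-hCG, Peg10 by the larger amount. This was not particular to the pair. Of the 5 tested genes within 500 kb of Peg10, Sgce included, 5 were called lower on the unruptured and 4 on the ruptured side. Over all genes the shares called lower were 27.7% and 30.4%.

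Nap1l5 had a log2FC with hCG of -2.12 (SE 0.46) on the unruptured side, where the ranges overlapped, and of -4.75 (SE 0.45) on the ruptured side, where all 13 post-hCG libraries lay below the lowest putative ruptured library. The ratio of mean levels was 5.03 and 29.0. Ndn fell by 0.93 (SE 0.14, FDR = 1.6e-06) and 1.31 (SE 0.18, FDR = 2.3e-07). Mest fell by 1.61 (SE 0.31, FDR = 5.4e-05) and Plagl1 by 0.87 (SE 0.24, FDR = 0.0028) on the unruptured side, the latter lost on the TPM scale (largest FDR over the alternatives 0.575). Grb10 fell there by 0.55 (SE 0.20, FDR = 0.020), a call that 4 of 11 alternatives lost. Peg3 went the other way on the unruptured side, with a log2FC of 0.54 (SE 0.20, FDR = 0.0192), a call that 5 of 11 alternatives lost, and on the ruptured side its log2FC was 0.08 (SE 0.20, FDR = 0.738).

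Whether the side differences themselves differed between the media was tested as an interaction, called for 8.91% of 10013 genes (4.25% with a positive and 4.65% with a negative value). For Nap1l5 the log2FC between the sides was smaller post-hCG by 2.65 (SE 0.68), and its value without hCG is the one that chose it. None of the 7 other members that passed the filter was called by edgeR. The nearest to the threshold were Mest (-1.27, SE 0.51, FDR = 0.108) and Sgce (-0.48, SE 0.21, FDR = 0.141). For Peg10 the value was 0.11 with an interval from -1.16 to 1.39, which leaves room for a sizeable difference in either direction. With limma on log2(TPM + 1) it was 0.91 (FDR = 0.0481), a gained call, and 2 other alternatives turned its sign.

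A wider list of 64 imprinted genes, 55 of them in the tables, includes the members. Between the sides without hCG, 28 of the list passed the filter and 9 were called (32.1%), 4 higher and 5 lower, against 8.84% of all genes higher and 8.96% lower. These counts include Nap1l5, in the comparison for which it was chosen, and other members, so nothing is read from them. Without the members, 20 were tested and 5 were called, 3 higher and 2 lower, against 17.8% of all genes. Apart from the members, Nnat, a neuronal proteolipid gene (log2FC 0.77, SE 0.25, FDR = 0.0265), Trappc9 (0.77, SE 0.13, FDR = 0.00013) and Igf2r, the receptor that clears IGF2 (0.67, SE 0.11, FDR = 5.2e-05), were higher on the putative ruptured side. Asb4 (-0.82, SE 0.26, FDR = 0.0222) and Gnas, which encodes the stimulatory G protein alpha subunit behind the gonadotropin receptors (-0.57, SE 0.17, FDR = 0.0141), were lower. Trappc9 lost its call among the libraries of the shared letter alone, and Gnas had a log2FC of 0.03 there. Nnat lost its call in 7 of 11 alternatives, and Igf2r and Asb4 in 4 of 13 each. The highest of the 3 that rose, at 0.77, was far below the 4.42 of Nap1l5.

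Post-hCG, 23 of the list passed the filter and 8 were called (34.8%), 3 higher and 5 lower on the ruptured side, against 21.4% of all genes called, 10% higher and 11.3% lower. These counts include the members. Without the members, 18 were tested and 4 were called, 2 higher and 2 lower. The higher ones were Ube3a, a ubiquitin ligase (0.47, SE 0.11, FDR = 0.0033), and H13, a signal peptide peptidase (0.44, SE 0.08, FDR = 0.00013). The lower ones were the tetraspanin Cd81 (-0.58, SE 0.12, FDR = 0.00054) and the histone chaperone Nap1l4 (-0.25, SE 0.08, FDR = 0.0237). Ube3a and H13 lost their calls on the TPM scale and Nap1l4 in 3 of 12 alternatives (highest FDR 0.221), while Cd81 kept its call in all 12.

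With hCG the list fell more often than it rose. On the unruptured side 21 of 28 were called, 5 higher and 16 lower (57.1% of those tested, against 27.7% of all genes), and on the ruptured side 17 of 25, 4 higher and 13 lower (52.0% against 30.4%). These counts include the members. Without the members, 20 were tested on each side, with 4 called higher and 9 lower. Genes of the list could also pass the filter through the group without hCG alone. With library totals as the only scaling the median of all tested genes moved to -0.25 on the unruptured and -0.33 on the ruptured side, so the balance of directions depends on the scaling. Atp10a, a phospholipid flippase gene, had the largest rise, with log2FC of 2.06 (SE 0.18, FDR = 3.1e-11) on the unruptured and 2.37 (SE 0.15, FDR = 3.4e-15) on the ruptured side. H13, Ube3a and Snrpn also rose on both sides, Snrpn by 0.62 (FDR = 0.0037) on the ruptured side, where 4 of 9 alternatives lost its call. Asb4, which codes for a substrate receptor of ubiquitin ligases, fell by 2.10 (SE 0.31, FDR = 8.2e-07) and 2.96 (SE 0.29, FDR = 2.2e-10). Among listed genes that are not members, Casd1, Gnas and Ppp1r9a had the next lowest values on the unruptured side (-0.87, -0.82 and -0.52), and Igf2r, Cd81 and Copg2 on the ruptured side (-1.23, -1.08 and -0.76). In the interaction 6 of 22 tested genes of the list that are not members were called, against 8.91% of all genes, namely Igf2r, Trappc9 and Cd81 with negative and Gnas, Ube3a and H13 with positive values.

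Of 14 listed hosts and nearest cluster partners of the members, 6 were tested without hCG and 2 were called, Fam13a and Herc3, both higher on the putative ruptured side (17.8% of all genes were called). Post-hCG 3 were tested and 1, Fam13a, was called (21.4% of all genes). With hCG 4 of 5 fell on the unruptured side, against 27.7% of all genes, and 4 of 6 on the ruptured side, against 30.4%. Fam13a had the larger difference of the pair at the Nap1l5 locus. It ran from 1.40 to 11.7 TPM on the putative unruptured and from 4.29 to 42.3 TPM on the putative ruptured side, with medians of 2.58 and 17.0 TPM (log2FC 2.48, SE 0.33, FDR = 3.0e-06). Post-hCG its medians were 1.05 and 1.29 TPM, and its log2FC of 0.53 (SE 0.19, FDR = 0.0408) lost its call in 9 of 10 alternatives. With hCG its log2FC was -1.997 (SE 0.30, FDR = 1.6e-06) on the unruptured and -3.93 (SE 0.32, FDR = 2.1e-12) on the ruptured side. Among the 5 libraries a side with the letter G the side difference was 1.18 (SE 0.52, FDR = 0.50).

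Herc3, whose intron holds Nap1l5, differed less. Its counts ran from 7 to 22 per library on the putative unruptured and from 7 to 23 on the putative ruptured side, with a log2FC of 0.61 (SE 0.18, FDR = 0.0146) that 5 of 11 alternatives lost. Post-hCG it was under the filter between the sides. Of the 7 genes of the tables within 500 kb of Nap1l5, 4 were tested without hCG. The other 2 tested, Abcg2, a drug transporter gene, and Tigd2, had a log2FC of -0.23 (FDR = 0.343) and 0.43 (FDR = 0.0723). Around Peg10, by comparison, the type I collagen gene Col1a2 was the neighbour with the largest side difference, at -2.01 (FDR = 0.0261) without hCG and -4.18 (FDR = 1.75e-07) post-hCG.

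**Figure D4:**
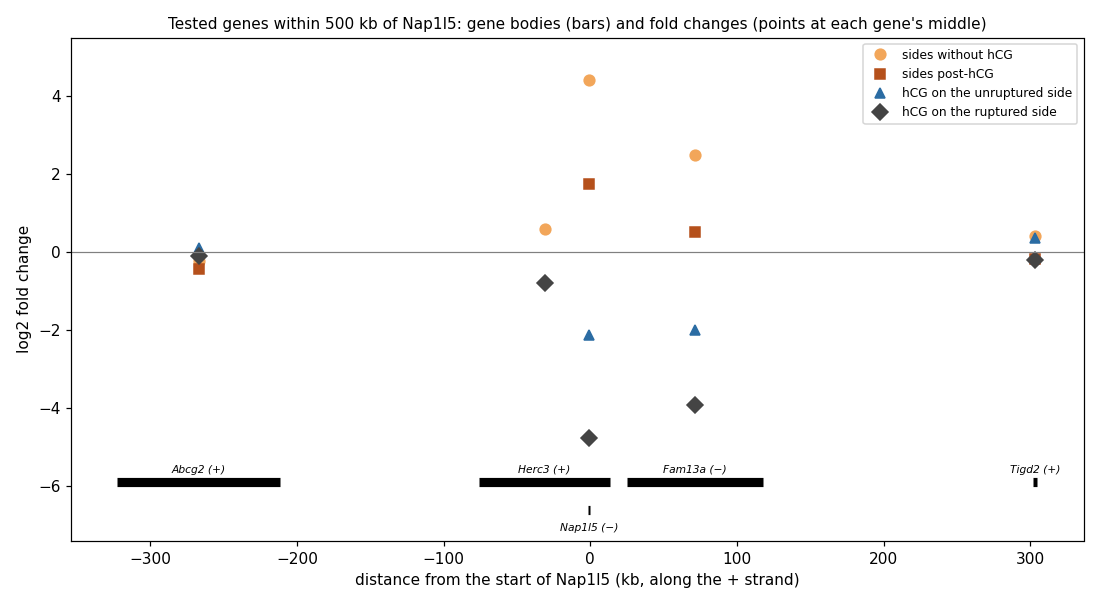
Log2 fold change (y axis) of the tested genes within 500 kb of Nap1l5 against their distance from its start in kb (x axis). Black bars are the gene bodies with their strands, and each marker shape is a comparison, drawn at the middle of the gene; Herc3 has no value in 2 comparisons because it was under the count filter. Nap1l5 and Fam13a are the genes with values above 2 without hCG and below -3 for hCG on the ruptured side, while Abcg2 and Tigd2 stay near 0.

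Of the 8 genes listed for the NAP1 family, Nap1l5 included, 2 of 6 tested were called between the sides without hCG, against 17.8% of all genes, 1 of them Nap1l5 in the comparison that chose it. Post-hCG 3 of 7 were called, 2 higher and 1 lower, against 21.4% of all genes. Nap1l1 had mean levels between 40.7 and 88.7 TPM, and its log2FC between the sides was -0.01 (SE 0.10) without hCG and -0.20 (SE 0.08, FDR = 0.0852) post-hCG. Without hCG, the histone chaperone Set was lower on the putative ruptured side (-0.35, SE 0.13, FDR = 0.0482). Post-hCG the X-linked Nap1l2 was higher on the ruptured side (1.07, SE 0.28, FDR = 0.0060), at mean levels of 1.17 and 2.08 TPM. Nap1l3 had mean levels of 0.328 to 0.401 TPM and was not tested.

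Within groups, where side and medium are constant, no other member rose with Nap1l5 in all 4 groups. The mean over the 4 groups of Pearson's r between log2(TPM + 1) of Nap1l5 and of each member, over 12 to 15 libraries a group, lay between -0.34 for Grb10 and 0.27 for Peg3, and was above 0 for 2 of 9, Peg3 and Cdkn1c. For Grb10 r was below 0 in all 4 groups (between -0.57 and -0.00054). For Peg3 the sign differed between groups, with r = 0.66 on the ruptured side post-hCG and -0.33 on the unruptured side post-hCG. The most alike pair of members was Peg10 and Sgce, the divergent neighbours, with r of 0.52, 0.64, 0.52 and 0.33 in the putative unruptured, putative ruptured, unruptured and ruptured groups. These are descriptions, since libraries share depth and cell makeup.

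Over the 9860 genes whose mean level reached 1 TPM, the 5 with the highest mean r with Nap1l5 were Inhbb (0.75), Tox2 (0.72), Bok (0.70), Inhba (0.66) and Atp6v0e2 (0.66). Inhbb and Inhba encode the beta subunits of inhibin and activin, hormones of granulosa cells. For Inhbb, r was 0.75, 0.98, 0.51 and 0.75 in the 4 groups. On the unruptured side post-hCG r was 0.52 for Tox2, 0.33 for Bok, 0.26 for Atp6v0e2 and 0.08 for Inhba. Inhba had mean levels of 66.1, 1372, 17.3 and 27.2 TPM in the putative unruptured, putative ruptured, unruptured and ruptured groups, and thus stood in the same order as Nap1l5 within each medium. The 5 with the lowest mean r were Plin2 (-0.51), which coats lipid droplets, Clca3a1 (-0.50), Clca3a2 (-0.48), Dcn (-0.47), the stromal proteoglycan decorin, and Cd63 (-0.47). Fam13a stood at place 400 with a mean r of 0.36, and its r was 0.80 and 0.90 without hCG, but -0.55 and 0.28 post-hCG.

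Against the summed granulosa markers, which include Inhbb, r of Nap1l5 was 0.54 on the putative unruptured, 0.97 on the putative ruptured, -0.07 on the unruptured post-hCG and 0.71 on the ruptured post-hCG side. Against the summed theca and stroma markers it was -0.30, -0.64, -0.29 and -0.23. Grb10 had the opposite sign against theca and stroma markers in all 4 groups, with r of 0.56, 0.69, 0.65 and 0.47, as did Mest (0.62, 0.48, 0.55 and 0.15), Ndn (0.52, 0.18, 0.63 and 0.24) and Plagl1 (0.28, 0.59, 0.22 and 0.36). For Peg3, Peg10, Dlk1, Cdkn1c and Sgce the sign differed between groups. The r of Peg3 was 0.31, -0.68, 0.63 and 0.20, and that of Sgce -0.24, -0.13, 0.40 and 0.33. The part of the cell types in these relations was not tested.

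**Figure D5:**
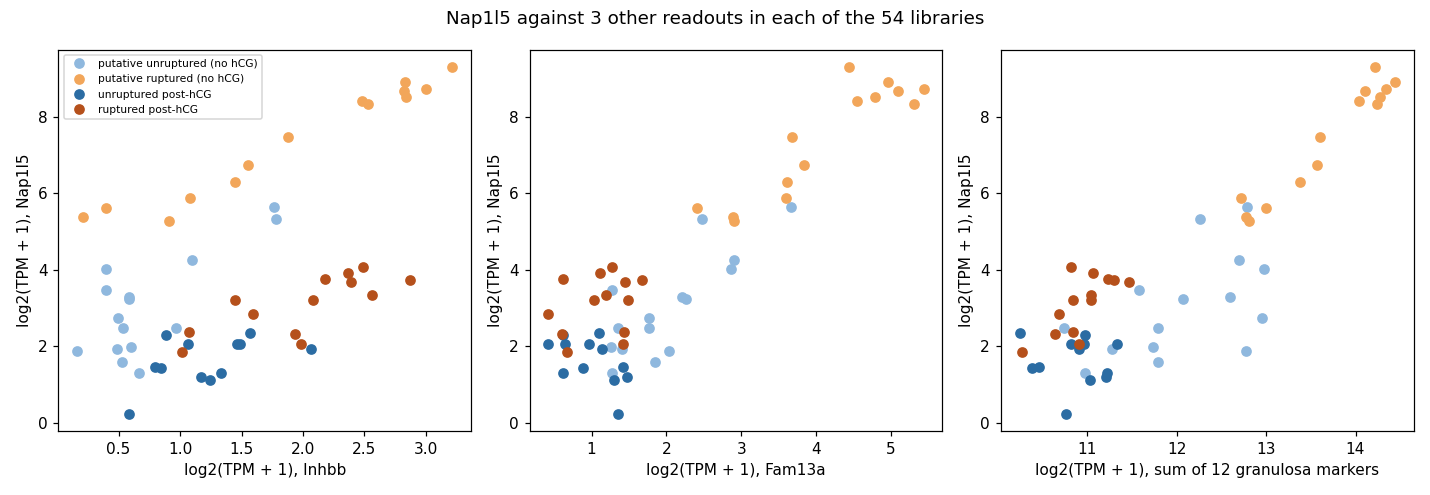
Level of Nap1l5 (y axis, log2(TPM + 1)) against that of Inhbb, of Fam13a and of the sum of 12 granulosa markers (x axes, same scale) in the 54 libraries, coloured by group. On the putative ruptured side the points of all 3 panels lie close to a rising line (r of 0.98, 0.90 and 0.97), while on the unruptured side post-hCG the relation to Inhbb is looser and the other 2 are negative (r of 0.51, -0.55 and -0.07).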

How the data were processed

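Processed tables of 54 Smart-Seq2 libraries were used, each from 1 microdissected follicle side. Per the study's methods, the authors ran HISAT2 on paired reads against GRCm38, applied ComBat-seq and used DESeq2. The deposited count table gives estimated counts, some of them fractional, for each gene in each library. The deposited TPM table holds TPM values as the authors scaled them. Which program counted the reads, and whether the tables precede ComBat-seq, is not given in the sources used here.

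Counts were rounded to whole numbers, genes were kept where filterByExpr passed them (counts of at least 10, 15 in total), and the TMM-scaled libraries went into the quasi-likelihood test of edgeR 4.0.16 in R 4.3.3, with Benjamini-Hochberg adjustment over all genes tested (FDR 0.05), in 5 comparisons: the sides in each medium, the media on each side, and their interaction. Only the groups compared entered a fit. Alternatives were DESeq2 1.42.0, limma 3.58.1 on log2(TPM + 1) or log2(TPM + 0.1), RLE factors, library totals, other filters, thinning to 1497071 counts, 1 fit of all groups, the replicate number as a block, libraries of 1 position letter, and each library left out. The fits were tested on simulated data. Totals ran from 1497071 to 2834734 counts, which limits genes under about 10 counts per library. Libraries were grouped by their labels, and all columns were mapped (0 left over).

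The members and the lists (imprinted genes, cluster partners, the NAP1 family, cell type markers) were chosen with earlier results of these data known. Named genes are the members, their hosts or nearest partners, the NAP1 family, up to 4 other imprinted genes in each direction per comparison with the largest log2FC past the threshold, the 5 genes most and least like Nap1l5 within groups, and markers where a list is described. Col1a2 was named after its values were seen. Of the wider imprinted list, 9 genes were not analysed here. Positions are from GENCODE M21 on GRCm38, and promoters from RefSeq on GRCm38.p6.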

Additional observations from a re-analysis of the deposited data

Results flagged for a closer look

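Side differences that were not alike in the 2 media, by the interaction test of edgeR, were called for 8 of 38 tested imprinted genes, cluster partners and NAP1 relatives other than Nap1l5, against 8.91% of the 10013 genes tested. For Nap1l5 the side difference was smaller post-hCG, by -2.65 on the log2 scale (SE 0.68). This value contains the difference without hCG for which Nap1l5 was chosen, so it is a description with no test. Fam13a, its neighbour, had -1.94 (SE 0.49, FDR = 0.0065), with a side difference of 2.48 without hCG and of 0.53 post-hCG, the latter a call that 9 of 10 alternatives lost. Negative values were also found for Igf2r at -0.88 (SE 0.18, FDR = 0.00089), Trappc9 at -0.66 (SE 0.18, FDR = 0.0119) and Cd81 at -0.65 (SE 0.18, FDR = 0.0147). Igf2r and Trappc9 were called higher on the putative ruptured side without hCG and not called post-hCG, and Cd81 was not called without hCG and lower on the ruptured side post-hCG.

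Positive values were found for Gnas at 0.92 (SE 0.23, FDR = 0.0075), Ube3a at 0.71 (SE 0.16, FDR = 0.0029), H13 at 0.61 (SE 0.12, FDR = 0.00034) and Set at 0.56 (SE 0.17, FDR = 0.0291). Gnas and Set were called lower on the putative ruptured side without hCG and not called post-hCG, and Ube3a and H13 were not called without hCG and higher on the ruptured side post-hCG. With limma on log2(TPM + 1) without a filter the interactions of Gnas, Ube3a, H13, Igf2r and Set lost their calls, those of H13 and Igf2r also with the filter. Library totals alone lost that of Set, and the replicate block or thinned counts that of Trappc9, while Fam13a and Cd81 kept theirs in all 10 alternatives.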

How the results depend on the processing

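Of 379 log2 fold changes of members under other settings, 351 kept their direction and their side of the threshold, 18 lost their call, 3 gained one and 7 changed sign, as did 4 of 357 with a library left out. Those that changed sign were small: Peg3 between the sides without hCG without putative unruptured replicate 7 (0.0525) or putative ruptured replicate 1 (0.018), 5 (0.0058) or 11 (0.0110), in a range from -0.126 to 0.0525 over all libraries left out, and without the libraries rich in oocyte markers, a setting chosen after seeing the data (0.0060), Peg3 with hCG on the ruptured side by library totals (-0.23), Mest among letter G libraries (0.13), and in the interaction Plagl1 by limma on log2(TPM + 1), with and without a filter (-0.0486), and Peg10 with thinned counts (-0.101). Peg3 post-hCG was called without unruptured replicate 8 or ruptured replicate 3 (lowest FDR 0.0187). The causes were not tested.

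Without hCG, 1613 genes were called between the sides, 1054 by limma on log2(TPM + 1), 1051 on log2(TPM + 0.1), 1034 without a filter, and 3 among the letter G libraries, which are fewer, with 0 imprinted genes there. With a library left out, 1401 to 1724 genes and 8 to 10 imprinted genes were called, and post-hCG 1611 to 1904 and 8 to 10. Post-hCG, 748 genes and 4 imprinted genes were called among letter C libraries, and 13 imprinted genes by library totals. In the interaction limma without a filter called 3 imprinted genes. Library totals moved the split of higher and lower calls from 801 and 812 to 585 and 905 without hCG, from 862 and 971 to 397 and 1830 post-hCG (limma 214 and 2166), from 2365 and 2582 to 1455 and 3844 with hCG on the unruptured side, from 2532 and 2597 to 1376 and 4242 on the ruptured side (limma 1568 and 3005), and from 426 and 466 to 230 and 660 in the interaction (limma 85 and 679).

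Same-numbered libraries were seldom alike: 3 of 14 pairs of sides without hCG and 4 of 12 post-hCG deviated together (r over 0.1). Across the media, where a follicle cannot be shared, 2 of 12 pairs on the unruptured and 4 of 13 on the ruptured side did. In the same order, 2, 2, 1 and 2 libraries correlated best with their own number. Pairing by position code was not checked, so whether the sides share follicles remains unknown. With the replicate number as a block, 1405 genes were called between the sides without hCG and 1733 post-hCG, and the interaction of Peg10 was -0.092. Depth limits Dlk1, Cdkn1c and, post-hCG, Nap1l5, Peg10 and Mest, which had few counts per library.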
